A study of Mus musculus with 9 samples.

Results

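Hepatic transcripts of 10 genes of gluconeogenesis were compared between control rats, rats given fructose and rats given fructose with a herbal extract. The genes were Pck1, Pck2, G6pc, Slc37a4, Fbp1, Pc, Ppargc1a, Mdh1, Got1 and Gpt. They were taken by exact gene symbol from the table of read counts per gene, where each symbol matched 1 entry, so that all 10 members were found among 19686 genes. All 10 also passed the filter on low counts in each of the 3 comparisons.

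The livers came from 9 male Wistar rats, 3 in each group, and 1 library was made per rat. The model and DSS groups drank water with 15% fructose for 8 weeks. The label DSS refers to a herbal medicine, and the methods state that only its extract in 50% methanol, given at 1.8 g/kg, was taken to sequencing, so the rats labelled DSS were read as receiving fructose and this extract. All rats were fasted for 12 h before sacrifice and lived under a 12 h light cycle. The time of day of sampling is not given in the sources used here. Fructose feeding is a dietary model of metabolic disorder and not a genetic one. The organism field of the labels says mouse, whereas the strain field says Wistar rat and the genes carry rat Ensembl identifiers, and the species was therefore taken to be the rat. Since the reads come from whole liver, fewer cells of a type and less RNA per cell cannot be told apart.

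Gluconeogenesis is the route by which the fasted liver makes new glucose from lactate, pyruvate, glycerol and amino acids. Most of its steps are those of glycolysis run backwards, but the one-way steps of glycolysis are bypassed by enzymes of its own. Pyruvate carboxylase (Pc) makes oxaloacetate from pyruvate in the mitochondrion, and phosphoenolpyruvate carboxykinase (Pck1 in the cytosol, Pck2 in the mitochondrion) turns oxaloacetate into phosphoenolpyruvate. Fructose-1,6-bisphosphatase (Fbp1) and glucose-6-phosphatase (G6pc) remove the phosphates further on, and Slc37a4 carries glucose-6-phosphate into the endoplasmic reticulum, where G6pc works. Cytosolic malate dehydrogenase (Mdh1) and aspartate aminotransferase (Got1) bring the carbon of oxaloacetate out to the cytosol, alanine aminotransferase (Gpt) makes pyruvate from alanine, and the coactivator PGC-1 alpha, encoded by Ppargc1a, raises transcription of the pathway in fasting.

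Total counts per library ranged from 14345819 to 21978523 in the control group, from 14922429 to 26837227 in the model group and from 18331311 to 21180914 in the DSS group. The 6 hepatocyte markers were high in every library, at a summed 133604 to 221298 CPM (counts scaled to the library total and by TMM factors). The sum was 133604 to 172808 CPM in control, 174277 to 221298 CPM in model and 169045 to 212774 CPM in DSS rats. The model rats thus lay wholly above control, although the lowest model rat exceeded the highest control rat by little. The 1st model library stood apart from the other 8 on the second principal component of all genes, with a score of −61.5 on an axis that held 22.3% of the variance. Some differences of Pc, Pck1, Mdh1, Got1 and the median of the members are also given without it. Apart from the ranges with each rat left out, all other differences that involve the model group include it. Levels below are CPM scaled by TMM factors over all 9 libraries, each difference is a log2 fold change with its standard error (SE) from edgeR's quasi-likelihood test on the 6 libraries of its 2 groups, and the FDR is the Benjamini-Hochberg value over all genes tested. Calls needed an FDR no larger than 0.01 together with a log2 fold change of 0.5 or more in size. Nothing says that the rats of a group were housed apart, so the tests measure the spread between these rats.

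None of the 10 genes was called in any comparison by edgeR with TMM scaling, the default filter and all 6 rats. Under other settings of edgeR Mdh1 and Pck1 passed in the DSS group against control, Mdh1 with library size alone, without a filter, with at least 10 counts in every library, with thinned counts and without the 1st control rat, and Pck1 without the 2nd DSS rat. The background was also low, since 0.0801% of all genes tested were called between the model and control groups, 0.136% between the DSS and model groups and 1.48% between the DSS and control groups. At an FDR of 0.05 the background rose to 0.601%, 0.456% and 6.36%, and 1 member, Mdh1, passed, in the DSS group against control. At an unadjusted p of 0.05 the members past the threshold numbered 2, 3 and 3, beside 13.2%, 8.02% and 24.3% of all genes. DESeq2, run as an alternative, called Pc in the model group against control, Mdh1 in the DSS group against model, and both Pck1 and Mdh1 in the DSS group against control. The 3 comparisons share their libraries pairwise, so a group mean that is high in one comparison enters the next as well.

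**Figure D1:**
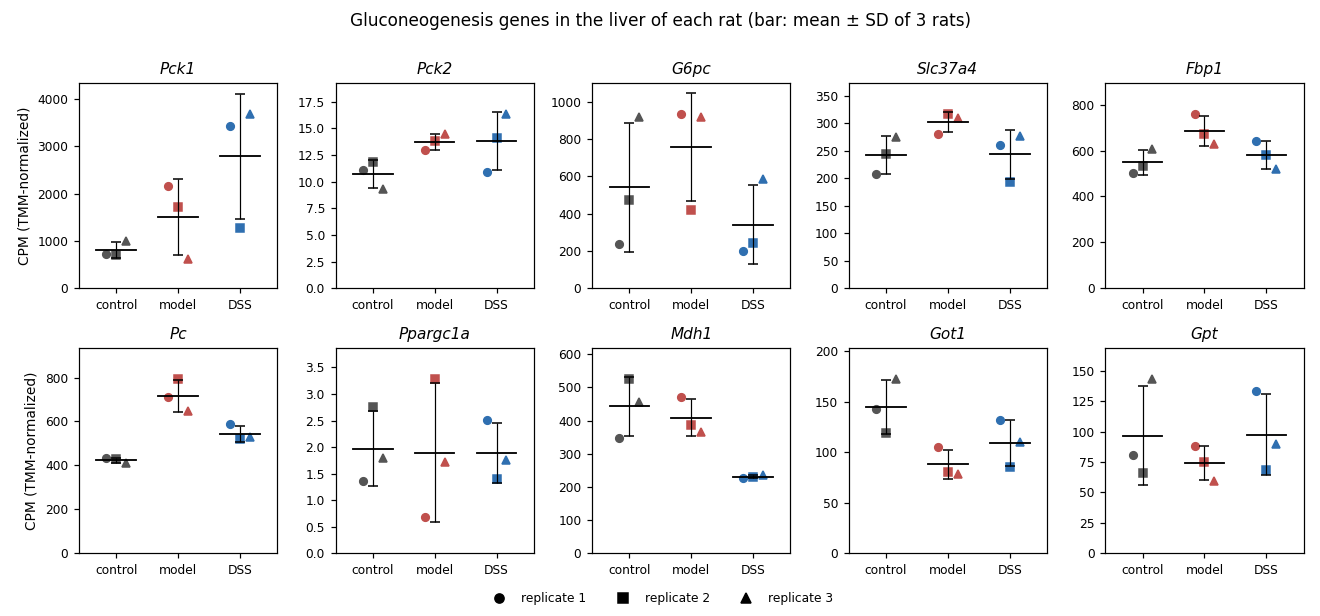
TMM-normalized CPM of each of the 10 genes in the liver of each rat, with a panel per gene, the group on the x axis and every y axis starting at 0. Points are rats, horizontal lines are group means and error bars are 1 SD of 3 rats. Pc separates the control, model and DSS groups, Mdh1 is at 226 to 235 CPM in the DSS rats and above that range in all others, and Pck1, G6pc and Ppargc1a spread widely within groups.

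The entry of pyruvate had the smallest FDR of the members between the model and control groups. Pc (ENSRNOG00000019372) stood at 432, 429 and 411 CPM in the control rats, at 710, 793 and 649 CPM in the model rats and at 586, 518 and 529 CPM in the DSS rats. The 3 groups did not overlap, with the model group highest, the control group lowest and the DSS group between them. The group means were 424 ± 11.6, 717 ± 72.2 and 544 ± 36.7 CPM (SD, n = 3). Pc was 1.69-fold higher in the model than in the control group (log2 fold change 0.76, SE 0.138, edgeR FDR 0.0629), which missed both thresholds, and DESeq2 gave an FDR of 3.68e-05 for it. Without the 1st model library the value was 0.75 (edgeR FDR 0.0501). The DSS group was lower than the model group by 0.39 on the log2 scale (−0.39, SE 0.143, edgeR FDR 0.536) and higher than the control group (0.36, SE 0.112, edgeR FDR 0.0874). Pc also varied less between rats of a group than most genes: its pooled within-group SD of 0.103 on the log2 scale lay at percentile 5.51 of 12897 genes, whose median SD was 0.264.

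Pck1, the cytosolic carboxykinase and a classical fasting gene, had its highest group mean in the DSS rats. Levels of Pck1 (ENSRNOG00000028616) were 730, 705 and 998 CPM in control, 2167, 1726 and 611 CPM in model and 3422, 1269 and 3676 CPM in DSS rats. All 3 DSS rats were above all control rats, while the model group overlapped with both: its 3rd rat was below every control rat and its other two were above the lowest DSS rat. The means were 811 ± 163, 1501 ± 802 and 2789 ± 1323 CPM (SD, n = 3). The DSS group exceeded the control group 3.43-fold (log2 fold change 1.78, SE 0.42, edgeR FDR 0.0613), short of the call. This value depended on 1 rat, since without the 2nd DSS rat it was 2.13 at an edgeR FDR of 0.00123, and DESeq2 gave an FDR of 8.54e-07 with all 6 rats. The model group stood 0.89 above control (SE 0.415, edgeR FDR 0.419), or 0.51 without the 1st model library (edgeR FDR 0.680), and the DSS group 0.90 above model (SE 0.513, edgeR FDR 0.761), or 1.27 without that library (edgeR FDR 0.715).

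Pck2 (ENSRNOG00000018536), the mitochondrial carboxykinase, was read with 140 to 316 counts per library. It was at 11.1, 11.9 and 9.32 CPM in control, 13.0, 13.8 and 14.5 CPM in model and 10.9, 14.1 and 16.3 CPM in DSS rats. The model group lay wholly above the control group, and the DSS group overlapped with both. The differences were 0.35 for model against control (SE 0.16, edgeR FDR 0.398), 0.01 for DSS against model (SE 0.183, edgeR FDR 0.993) and 0.35 for DSS against control (SE 0.176, edgeR FDR 0.253).

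Fbp1 (ENSRNOG00000017597), which removes a phosphate from fructose-1,6-bisphosphate, differed little between groups and between rats. Its levels were 503, 534 and 608 CPM in control, 757, 672 and 630 CPM in model and 641, 581 and 520 CPM in DSS rats. Every model rat was above every control rat, although the lowest model rat exceeded the highest control rat by little, and the DSS rats overlapped with both groups. Model exceeded control by 0.32 (SE 0.151, edgeR FDR 0.416), DSS differed from model by −0.24 (SE 0.15, edgeR FDR 0.795) and from control by 0.08 (SE 0.131, edgeR FDR 0.771). Its within-group SD of 0.142 on the log2 scale was the smallest of the members after that of Pc.

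G6pc (ENSRNOG00000051171), whose product makes the last step to free glucose, was the most variable member. The control rats had 236, 474 and 916 CPM, the model rats 932, 421 and 916 CPM and the DSS rats 200, 241 and 584 CPM. All 3 groups overlapped, and the highest control rat was 3.89 times the lowest. Group means were 542 ± 345, 756 ± 291 and 342 ± 211 CPM (SD, n = 3), the lowest in the DSS group. The differences were 0.48 for model against control (SE 0.492, edgeR FDR 0.722), −1.14 for DSS against model (SE 0.455, edgeR FDR 0.576) and −0.67 for DSS against control (SE 0.667, edgeR FDR 0.607). The within-group SD of G6pc, 0.830 on the log2 scale, was at percentile 94.9 of all genes, with Pck1 at percentile 93.3. The order of the rats was not the one seen for Pck1. The 1st DSS rat was second highest of the 9 for Pck1 and lowest of the 9 for G6pc.

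Slc37a4 (ENSRNOG00000011361), the partner that brings G6pc its substrate, differed less between rats. It was at 207, 243 and 275 CPM in control, 281, 316 and 309 CPM in model and 261, 192 and 276 CPM in DSS rats. The model rats were above all rats of both other groups, and these overlapped. The model group was 1.25-fold above control (0.32, SE 0.149, edgeR FDR 0.415), and the DSS group differed from model by −0.31 (SE 0.167, edgeR FDR 0.736) and from control by 0.00 (SE 0.167, edgeR FDR 0.990). The ratio of G6pc to Slc37a4 ranged from 1.14 to 3.33 in control, 1.33 to 3.32 in model and 0.768 to 2.11 in DSS rats, with overlap of all groups.

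Mdh1 (ENSRNOG00000008103), the cytosolic malate dehydrogenase of the malate shuttle, was lowest in the DSS rats. It was the one member past an FDR of 0.05, in the DSS group against control but not against model. Levels of Mdh1 were 347, 525 and 456 CPM in control, 471, 387 and 367 CPM in model and 226, 231 and 235 CPM in DSS rats. The DSS rats (231 ± 4.21 CPM, SD, n = 3) lay below all 6 others, while control (443 ± 89.4 CPM) and model (408 ± 55.3 CPM) overlapped. Mdh1 was 1.92-fold lower in the DSS than in the control group (log2 fold change −0.94, SE 0.156, edgeR FDR 0.0103), just outside the call at 0.01. Over the alternatives this FDR ran from 2.01e-06 with DESeq2 to 0.0439 without the 1st DSS rat. Against the model group it was 1.76-fold lower (−0.82, SE 0.145, edgeR FDR 0.0738), or −0.70 without the 1st model library (edgeR FDR 0.0700), and DESeq2 gave an FDR of 8.17e-05. Model against control gave −0.12 (SE 0.191, edgeR FDR 0.833). The mitochondrial enzyme Mdh2 differed in the same direction by less, at −0.48 for DSS against control (edgeR FDR 0.0893) and −0.41 for DSS against model (edgeR FDR 0.677). The ratio of Mdh1 to Mdh2, chosen after the values were seen, was 1.33 to 1.88 in DSS, 1.93 to 2.22 in model and 1.68 to 2.46 in control rats, so that DSS and model did not overlap.

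Got1 (ENSRNOG00000016356), the cytosolic aspartate aminotransferase that works beside Mdh1, was lowest in the model rats. Values were 143, 119 and 172 CPM in control, 105, 80.2 and 78.7 CPM in model and 132, 85.7 and 110 CPM in DSS rats. The model group lay wholly below control, and the DSS group overlapped with both. Got1 was 1.65-fold lower in the model than in the control group (−0.72, SE 0.186, edgeR FDR 0.142), with −0.88 without the 1st model library (edgeR FDR 0.0606) and a DESeq2 FDR of 0.0219. The DSS group differed from model by 0.32 (SE 0.194, edgeR FDR 0.782) and from control by −0.41 (SE 0.184, edgeR FDR 0.213). Its mitochondrial partner Got2 gave 0.11 for model against control (edgeR FDR 0.797). The ratio of Got1 to Got2, also chosen after the values were seen, was 0.149 to 0.182 in model against 0.223 to 0.337 in control rats. In DSS rats this ratio was 0.179 to 0.265, which overlapped with both other groups.

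Gpt (ENSRNOG00000033915), which links alanine to pyruvate, overlapped in all 3 groups. Its levels were 80.6, 66.1 and 143 CPM in control, 87.9, 74.7 and 59.6 CPM in model and 134, 68.3 and 89.6 CPM in DSS rats. In the control and in the DSS group 1 rat stood well above the other two. The differences were −0.38 for model against control (SE 0.29, edgeR FDR 0.615), 0.40 for DSS against model (SE 0.255, edgeR FDR 0.795) and 0.01 for DSS against control (SE 0.373, edgeR FDR 0.994). The first of these rested on the 3rd control rat, without which it was 0.020.

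Ppargc1a (ENSRNOG00000004473), the coactivator of the pathway, was read with only 16 to 51 counts per library. It was at 1.36, 2.75 and 1.798 CPM in control, 0.685, 3.28 and 1.73 CPM in model and 2.50, 1.40 and 1.76 CPM in DSS rats. The groups overlapped, and the model group held both the lowest and the highest rat. The exact 95% Poisson interval, which covers counting error only, was 0.391 to 1.11 CPM for the 1st model rat and 2.44 to 4.31 CPM for the 2nd, so these rats of 1 group differed beyond it. The 1st model rat gave the library that stood apart on the second principal component of all genes. Differences between groups were −0.08 (SE 0.542), 0.03 (SE 0.532) and −0.05 (SE 0.352) for model against control, DSS against model and DSS against control, with edgeR FDRs of 0.967, 0.995 and 0.950. A difference in Ppargc1a was not detectable at this depth and spread.

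**Figure D2:**
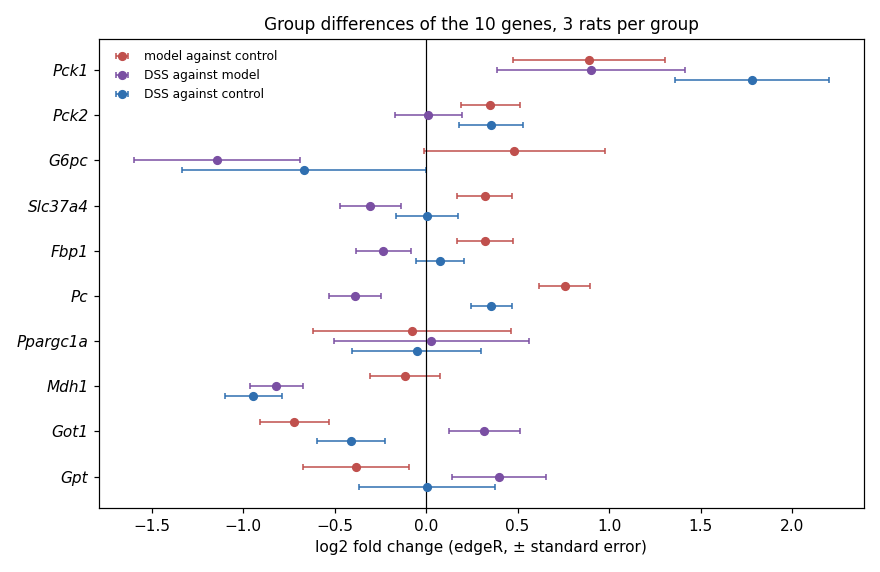
The log2 fold change of each of the 10 genes (x axis, edgeR, error bars 1 SE) in the 3 comparisons, with the genes on the y axis and 3 rats per group. Pck1 reaches 1.78 and Mdh1 −0.94 in the DSS group against control, and the error bars of G6pc and Ppargc1a are several times those of Pc.

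Taking the members as a list, 6 of 10 had a positive and 4 a negative difference in the model group against control, with a median of 0.32 beside −0.00 over all 12486 genes. Between the DSS and model groups 5 were positive and 5 negative, with a median of −0.11 beside 0.00 over 12502 genes. For DSS against control the split was 6 to 4, with a median of 0.01 beside −0.01 over 12633 genes. The list median in the model group fell to 0.17 without the 1st control rat, and in the DSS group against model it was −0.25 without the 1st model library and −0.28 without the 1st DSS rat. Higher in every model than in every control rat were 4 members (Pck2, Slc37a4, Fbp1 and Pc), beside 11.1% of all genes, and 1 (Got1) was lower in every one, beside 9.94%. For DSS against model 0 were wholly higher, beside 6.17%, and 3 were wholly lower (Slc37a4, Pc and Mdh1), beside 7.86%. For DSS against control 2 were wholly higher (Pck1 and Pc), beside 14.9%, and 1 (Mdh1) wholly lower, beside 15.2%.

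A list of 8 reversible steps held the genes that gluconeogenesis shares with glycolysis and, in addition, the mitochondrial malate dehydrogenase Mdh2, which is no step of glycolysis. All 8 had a negative difference in the DSS group against control (median −0.67), 3 were called, beside 1.48% of all genes called in either direction, and 8 were lower in every DSS than in every control rat, beside 15.2% of all genes. Gpi, which interconverts glucose-6-phosphate and fructose-6-phosphate, was at 156, 210 and 232 CPM in control, 272, 193 and 267 CPM in model and 84.4, 92.0 and 89.6 CPM in DSS rats. Every DSS rat was thus below all others, and Gpi fell 2.25-fold against control (log2 fold change −1.17, SE 0.153, edgeR FDR 0.0036). The glycolytic kinase Pgk1 fell by 0.85 (edgeR FDR 0.00526) and the enolase Eno1 by 0.92 (edgeR FDR 0.00578) on the log2 scale. Gapdh, the dehydrogenase of glyceraldehyde-3-phosphate, passed an FDR of 0.05 with −0.67 (edgeR FDR 0.0425). Tpi1, Pgam1 and Mdh2 passed neither threshold. Against the model group all 8 were again negative (median −0.69) and 0 were called, beside 0.136% of all genes. At an FDR of 0.05, which 0.456% of all genes passed, Gpi (−1.45, edgeR FDR 0.0144) and Eno1 (−0.96, edgeR FDR 0.0329) were lower. Between the model and control groups the median was 0.06, and no gene of the list passed either threshold or separated the groups.

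**Figure D3:**
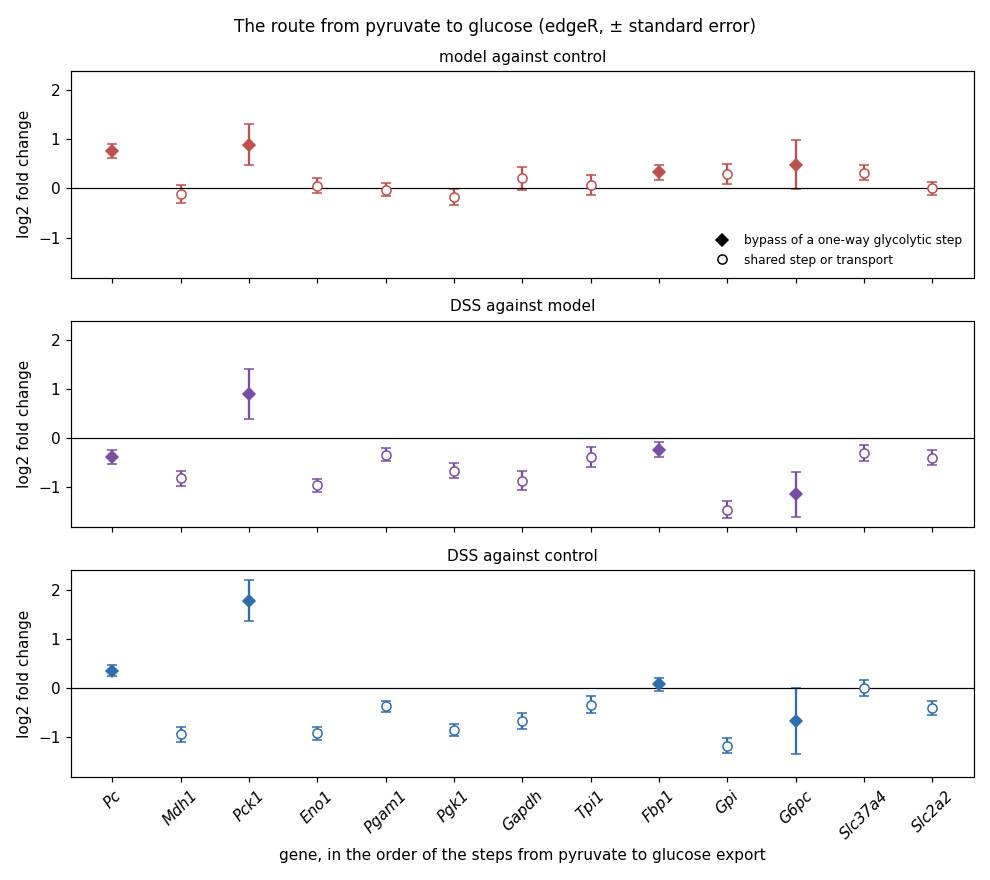
The log2 fold change (y axis, edgeR, error bars 1 SE) of genes along the route from pyruvate (left) to glucose export (right), with a panel per comparison. Slc37a4 is drawn to the right of G6pc although it acts before G6pc, and the aldolase step is left out. Filled diamonds are the enzymes that bypass a one-way glycolytic step and open circles are shared steps or transport. In the lower panels, all circles but Slc37a4 against control lie below 0, while the diamonds lie on both sides, with Pck1 highest.

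In the list of opposing glycolytic steps the largest differences of the DSS group were those of Pklr. Pklr, the liver pyruvate kinase that undoes the work of Pc and Pck1, was at 522, 438 and 489 CPM in control, 492, 517 and 703 CPM in model and 62.0, 98.6 and 80.9 CPM in DSS rats. It fell 7.06-fold in the DSS group against model (log2 fold change −2.82, SE 0.229, edgeR FDR 0.00266) and 6.01-fold against control (−2.59, SE 0.178, edgeR FDR 0.000173). Pfkfb1, which sets the level of the regulator fructose-2,6-bisphosphate, fell by 1.93 on the log2 scale in the DSS group against control (edgeR FDR 0.00376), and by 1.31 in the model group against control at an FDR of 0.05 (edgeR FDR 0.0241). Gckr, a regulatory protein of hepatic sugar phosphorylation, rose by 0.74 in the DSS group against control (edgeR FDR 0.0079) and 2.27-fold in the model group against control at an FDR of 0.05 (edgeR FDR 0.0244). Of this list of 10 genes, 1 was called higher and 2 lower in the DSS group against control, beside 1.48% of all genes, 1 lower in the DSS group against model, beside 0.136%, and 0 in the model group against control, beside 0.0801%. Its medians were −0.32, −0.21 and 0.01.

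Ratios of opposing genes within a library need no scaling between libraries. The ratio of Pck1 to Pklr was 1.40, 1.61 and 2.04 in control, 4.41, 3.34 and 0.869 in model and 55.2, 12.9 and 45.4 in DSS rats. The DSS group lay above both others, 13.6-fold over model and 19.2-fold over control (3.77 and 4.26 on the log2 scale, two-sided exact permutation p = 0.1 in each, adjusted 0.4). In the fits the difference of Pklr was the larger of the pair in both comparisons. Fbp1 to Pfkl, whose product opposes Fbp1, and Pck1 to Pck2 overlapped in every comparison, with exact permutation p from 0.2 to 0.7. With 3 rats against 3 this test cannot give a p below 0.1, and p was adjusted over 12 comparisons of ratios.

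**Figure D4:**
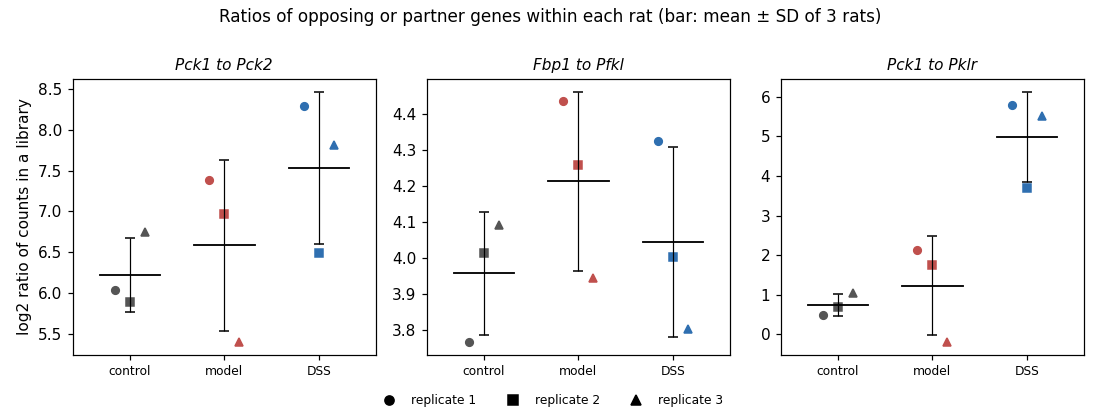
The log2 ratio of counts of 2 genes within each library (y axis, not starting at 0) for 3 pairs, with the group on the x axis. Points are rats, lines are means and error bars are 1 SD of 3 rats. The Pck1 to Pklr ratio of the DSS rats lies above all others, and the groups overlap for the other pairs.

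Genes that feed substrate into the route differed in both directions. In this list 13 of 14 genes were tested. Gpd1, the cytosolic glycerol-3-phosphate dehydrogenase, fell by 0.90 on the log2 scale in the DSS group against control (edgeR FDR 0.00295), and the amino acid transporter Slc38a4 rose by 0.63 at an FDR of 0.05 (edgeR FDR 0.0438). Between the model and control groups 0 were called, beside 0.0801% of all genes. The nearest were Gls2, the liver glutaminase, at −0.82 (edgeR FDR 0.0521), Sds, the serine dehydratase, at −3.64 (edgeR FDR 0.0844), and Ldha, a lactate dehydrogenase subunit, at 0.93 (edgeR FDR 0.117). Sds was also uneven within groups, at 44.7, 11.9 and 52.5 CPM in control, 5.56, 1.48 and 1.36 CPM in model and 41.3, 0.755 and 6.66 CPM in DSS rats. Against the model group 0 were called with the extract, beside 0.136% of all genes, and the nearest was Ldha at −0.79 (edgeR FDR 0.314). Of the 8 transporters of the pathway 0 were called in any comparison. The shares of all genes were 0.0801% for model against control, 0.136% for DSS against model and 1.48% for DSS against control. A list this short would hold few calls at such shares. Slc2a2, the glucose transporter of the hepatocyte surface, stood at −0.41 for DSS against control (edgeR FDR 0.0990). Among 9 tested paralogs of the members, Slc37a1 fell by 1.55 in the DSS group against control at an FDR of 0.05 (edgeR FDR 0.0172), and 0 were called, beside the same shares.

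Regulators of the pathway were tested for 23 of 25 genes. Between the model and control groups and between the DSS and model groups 0 were called, beside 0.0801% and 0.136% of all genes. None passed an FDR of 0.05, beside 0.601% and 0.456%. In the DSS group against control Cry1, a clock repressor that also damps glucagon signalling, fell by 2.63 on the log2 scale (edgeR FDR 0.000289). Nr1d1, the clock repressor REV-ERB alpha, rose by 4.12 (edgeR FDR 0.0111) and Sik1, a kinase that restrains the coactivators of CREB, fell by 0.57 (edgeR FDR 0.0487), both at an FDR of 0.05. Nr1d1 stood at 8.53, 2.03 and 5.66 CPM in control, 13.2, 81.7 and 27.3 CPM in model and 105, 101 and 83.8 CPM in DSS rats. Cry1 was at 24.7, 33.2 and 27.0 CPM in control, 19.1, 10.2 and 9.93 CPM in model and 5.93, 4.26 and 3.62 CPM in DSS rats. For both clock genes the 3 groups did not overlap. Pck1 and G6pc are known to vary over the day, and the part of sampling time in their values was not tested. Foxo1, a transcription factor that insulin restrains, differed by −0.06, 0.02 and −0.05 in model against control, DSS against model and DSS against control (edgeR FDR 0.955, 0.994 and 0.869). Its levels were 16.8, 13.1 and 16.2 CPM in control, 7.62, 17.3 and 19.6 CPM in model and 15.6, 13.3 and 15.7 CPM in DSS rats. The 1st model library was the lowest of all, and the other model rats were above every control rat.

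Gluconeogenesis is known to be stronger in hepatocytes near the portal vein. The summed level of 9 periportal markers, which include Pck1 and G6pc, was 8605 to 9974 CPM in control, 6437 to 8020 CPM in model and 6664 to 10935 CPM in DSS rats. Of this sum, Pck1 alone made 705 to 998 CPM in control, 611 to 2167 CPM in model and 1269 to 3676 CPM in DSS rats. The periportal sum is therefore no separate measure beside Pck1 and G6pc, and a sum without them was not computed. The sum of 10 pericentral markers was 4828 to 5270 CPM in control, 3662 to 4285 CPM in model and 4480 to 5799 CPM in DSS rats. In the model rats both sums thus lay below the control range. Markers of other cell types were low beside those of hepatocytes. Red blood cell markers were the highest of them, at 356 to 1012 CPM in control, 319 to 518 CPM in model and 319 to 622 CPM in DSS rats. The sums reached at most 502 CPM for leukocytes and Kupffer cells, 361 CPM for stellate cells and 27.7 CPM for bile duct cells in any library, with overlapping ranges. The 2 matched pancreas markers summed to 13.1 to 16.3 CPM in control, 18.5 to 28.0 CPM in model and 16.1 to 26.4 CPM in DSS rats, and 4 proliferation markers to 3.10 to 6.45, 5.52 to 12.02 and 0.924 to 3.93 CPM. The kidney gene Slc12a1 was at 0 to 0.280 CPM in control, 0.308 to 5.53 CPM in model and 0 to 0.0540 CPM in DSS rats. The pancreas sum and Slc12a1 thus lay wholly higher in model than in control rats, and the proliferation sum wholly lower in DSS than in model rats. No matched marker was at 0 in all libraries. The part of the zonal or other cell markers in the values of the members was not tested.

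Finally, the genes whose levels followed the most variable members over the 9 libraries were listed as a description, by Pearson's r of log2 CPM among about 10100 genes with a mean count of at least 50. The libraries share the group structure, so these values hold group and rat differences together. Nearest to Pck1 were Cfi (r = 0.955), Clec2g (0.946), Jun (0.946), Snx7 (0.929) and Car8 (0.925). Nearest to G6pc were Xrcc1 (0.929), Cidec (0.928), Bhmt2 (0.919), Nr1h4 (0.908) and RGD1311345 (0.901). The 5 nearest to Ppargc1a, Spg11 (0.950), Lars2 (0.945), Focad (0.934), Syde2 (0.934) and Nhsl1 (0.930), rest on its low counts. The 3 sets had no gene in common, but sets of 5 among about 10100 genes are too small for this to tell the members apart.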

How the data were processed

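RNA of 9 rat livers was sequenced after oligo(dT) enrichment, 1 library per rat. According to the study's methods and the submitters' processing notes, alignment by the authors was done with HISAT2 2.0.5 (build Rnor_6.0), and reads were counted on exons without regard to strand with HTSeq 0.6.1. The authors deposited raw counts per gene, so reads of genes that overlap on opposite strands cannot be told apart. A table of assembled transcripts was not used. Groups were taken from the labels.

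Counts were fitted pair by pair with edgeR 4.0.16 (R 4.3.3, limma 3.58.1) using filterByExpr, TMM normalization, robust glmQLFit and the two-sided glmQLFTest. The code was checked on simulated counts with planted fold changes and the dispersions that edgeR itself estimated. That check does not measure the rate of false calls in these data. Spread and correlation used log2 CPM with 0.05 CPM added. Ratios were compared by exact permutation. DESeq2 1.42.0, other scalings and filters, all 9 libraries in one fit, the replicate block, thinned counts, an FDR of 0.05, 0.5 counts added to ratios and the omission of each rat were the alternatives. The genes named were all members, and were otherwise taken from genes of the pathway lists with an FDR of at most 0.05 or among the 3 of lowest p in a comparison, the ratio partners and the 5 nearest genes of Pck1, G6pc and Ppargc1a. Got2 and Foxo1 lie outside this rule and were named for their role after their values were seen. Members and lists were chosen with earlier results of these data known. The symbols Prodh, G6pc2, Nr3c1 and Sirt1 were not matched and were not analysed here, Fbp2 was below the filter, some single genes and 1 ratio are not reported here, and no rat genome sequence was used.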

Additional observations from a re-analysis of the deposited data

How the results depend on the processing

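The number of members called at an FDR of 0.01 was 1 with DESeq2 in the model group against control and 1 in the DSS group against model. For DSS against control it was 1 at an FDR of 0.05, with library size alone, without a filter, with at least 10 counts in every library and with thinned counts, 2 with DESeq2, and 0 to 1 when each rat was left out. Library size alone moved the median of all genes to −0.14 in the model and in the DSS group against control, and the members' median to 0.18 and −0.13, with Slc37a4 at −0.13, Fbp1 at −0.050 and Gpt at −0.12 for DSS against control and Ppargc1a at −0.024 for DSS against model. With thinned counts Pck2 was −0.020 for DSS against model and Ppargc1a 0.059 for DSS against control.

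The replicate numbers did not pair the rats (correlations −0.222 to −0.0211). With a replicate block 0 members were called in each comparison, the medians were 0.33, −0.12 and 0.01, and only Pck2 (DSS against model, −0.0075) and Slc37a4 (DSS against control, −0.0036) turned. All genes called went from 10, 17 and 187 to 0, 7 and 104 with the block, 256, 147 and 768 with DESeq2, and 71, 38 and 489 without a filter.

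With each rat left out, the members' median ran from 0.17 to 0.34 for model against control, −0.28 to −0.084 for DSS against model and −0.17 to 0.14 for DSS against control. For model against control the ranges were −0.73 to 0.34 for Ppargc1a, −0.26 to 0.025 for Mdh1, −0.59 to 0.020 for Gpt and −0.044 to 0.95 for the log2 ratio of Pck1 to Pck2. For DSS against model they were −0.13 to 0.15 for Pck2 and −0.39 to 0.68 for Ppargc1a. For DSS against control they were −0.095 to 0.15 for Slc37a4, −0.30 to 0.27 for Ppargc1a, −0.29 to 0.41 for Gpt and −0.054 to 0.21 for Fbp1 to Pfkl. The cause of these changes was not tested. Of 420 alternative values of single members, 383 kept direction and side of the threshold, 10 passed it and 27 changed sign. Ppargc1a had the fewest counts of the members, 16 to 51 per library.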
